A study of Mus musculus with 10 samples.

Results

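The 41 genes described here encode the folding, secretion and stress-sensing machinery of the endoplasmic reticulum (ER), the compartment where secreted and membrane proteins are made. They were taken as a list by function: 5 lumenal chaperones, 4 disulfide isomerases, 4 co-chaperones, 2 secreted stress proteins, 3 stress sensors, 3 transcription factors, 7 genes of ER-associated degradation, 3 of the Sec61 channel, 4 translocon-associated proteins, 4 of signal peptidase and 2 KDEL receptors. Each gene was read from 1 probe set, the one with the highest mean over the 10 arrays. Of the 41, 40 had a probe set among the 17097 genes that could be named, and Sec61g had none here. All 40 were among the 11037 genes tested, and 39 lay above the median of every array; Derl3, at 4.52 to 4.80, was the exception. Values are log2 GCRMA levels, on which 1 unit stands for 2-fold. Levels of different probe sets are not comparable with each other, and differences of 1 gene between arrays are read here. For marker lists, linear levels were summed and compared between arrays, and bright probe sets weigh most in such sums.

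The arrays came from CD4+ T cells of the spleen of DBA/1 mice, and asked what injected dendritic cells do to these cells and how 2 sorted subsets differ. Naive mice gave CD4+ cells (n = 2 arrays). Mice given 500000 immature dendritic cells into the peritoneum on days -7, -5 and -3 before they were killed gave 3 groups: CD4+ cells with n = 2, and the CD49b+ and CD25+ subsets with n = 3 each. All cells were enriched by negative selection and sorted after staining for CD4, CD49b and CD25, and cells of several mice were pooled, so that an array is not 1 mouse. The labels do not say whether the CD4+ cells held CD25+ or CD49b+ cells, and no sorted subset of naive mice was part of the design. They also do not say that replicates came from separate pools, so that p-values measure the spread between these arrays, which may be technical.

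The labels were set against marker genes. Each of the 7 T cell markers measured, Cd3d, Cd3e, Cd3g, Cd4, Cd247, Cd5 and Cd28, lay above the median of all 10 arrays. Il2ra, which encodes CD25, lay at 8.51 to 9.09 on the CD25+ arrays, 6.23 to 6.37 on the CD49b+ arrays and 4.15 to 4.19 on the 4 CD4+ arrays. Itga2, which encodes CD49b, did not follow its label: its levels of 5.59, 5.97 and 5.77 on the CD49b+ arrays overlapped the 5.80 and 5.85 of CD4+ cells of injected mice. The sort used the surface protein. Replicate 3 of the CD49b+ and of the CD25+ arrays stood apart in the control probe sets for added poly-A RNA, with means of 8.41 and 8.23 against 5.32 to 6.72 on the other 8 arrays, and the comparisons were also made without these 2 arrays. The array median was 4.79 to 4.81 on the 4 CD4+ arrays and 4.61 to 4.65 on the 6 subset arrays.

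Proteins enter the ER through the Sec61 channel, lose their signal peptide to signal peptidase, and fold with the help of chaperones and of enzymes that form disulfide bonds. When unfolded proteins build up, the sensors IRE1 (Ern1), PERK (Eif2ak3) and ATF6 signal to the nucleus. IRE1 splices the Xbp1 transcript, PERK raises translation of ATF4 and through it Ddit3 (CHOP), and a released fragment of ATF6 enters the nucleus; together they induce chaperones and degradation genes. T cells enlarge this machinery when they are activated, and plasma cells carry it to an extreme. The arrays measure transcript levels, and the splicing of Xbp1, the phosphorylation of PERK and the cleavage of ATF6 were not measured.

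Many chaperone promoters carry the ER stress response element, CCAAT followed after 9 bases by CCACG, which is bound by ATF6 and XBP1 together with NF-Y. The sequences of the members that hold it are shown first because they are what ties part of the list to the sensors. RefSeq promoter windows (GRCm38.p6, 250 bases before to 50 after the start site) were found for 32 of the 41 members. Searched on both strands, the element was in 9 of these 32 genes (28.1%), against 37 of all 27025 genes with a window (0.137%). The list was compiled by function, so that the share describes which genes it holds. The 250 bases before the start of Hspa5 (BiP, the main lumenal chaperone) hold 1 match and those of Hsp90b1 (GRP94, its Hsp90 relative) hold 2, written with the parts of the element in capitals; where the element lies on the opposite strand the capitals read CGTGG and ATTGG.
Hspa5, chr2:34771840-34772089, plus strand: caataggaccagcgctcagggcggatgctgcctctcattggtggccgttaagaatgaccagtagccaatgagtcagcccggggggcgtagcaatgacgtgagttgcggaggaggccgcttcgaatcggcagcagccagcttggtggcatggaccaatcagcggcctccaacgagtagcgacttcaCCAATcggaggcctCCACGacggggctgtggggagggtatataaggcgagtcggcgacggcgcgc
Hsp90b1, chr10:86705445-86705694, minus strand: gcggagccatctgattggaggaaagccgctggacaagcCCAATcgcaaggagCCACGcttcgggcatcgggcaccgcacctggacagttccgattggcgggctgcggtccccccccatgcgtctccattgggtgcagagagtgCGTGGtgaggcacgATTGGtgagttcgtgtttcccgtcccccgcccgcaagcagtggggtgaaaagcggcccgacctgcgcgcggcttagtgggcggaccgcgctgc

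The other 7 matches are shown in the orientation of the element, with its parts in capitals, so that the 9 bases between them can be compared.
Calr: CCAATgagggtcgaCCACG
Canx: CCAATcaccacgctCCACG
Creld2: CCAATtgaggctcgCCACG
Derl3: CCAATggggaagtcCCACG
Dnajc3: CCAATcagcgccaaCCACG
Pdia6: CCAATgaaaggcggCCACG
Syvn1: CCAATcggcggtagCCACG
The bases between the parts were rich in G and C, at 66.7% or 77.8%, and differed in sequence from gene to gene. A shorter form, ATTGG followed after 1 base by CCACG, was in 2 of the 32 members (6.25%), against 12 of 27025 genes (0.0444%).
Dnajb11: ATTGGcCCACG
Herpud1: ATTGGgCCACG
The unfolded protein response element TGACGTGG was in 0 of the 32 member genes and in 0.714% of all genes, and the amino acid response element TGATGCAAT, to which ATF4 binds, was in 0 and in 0.222%. No match says only that these letters are not in this window.

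**Figure D1:**
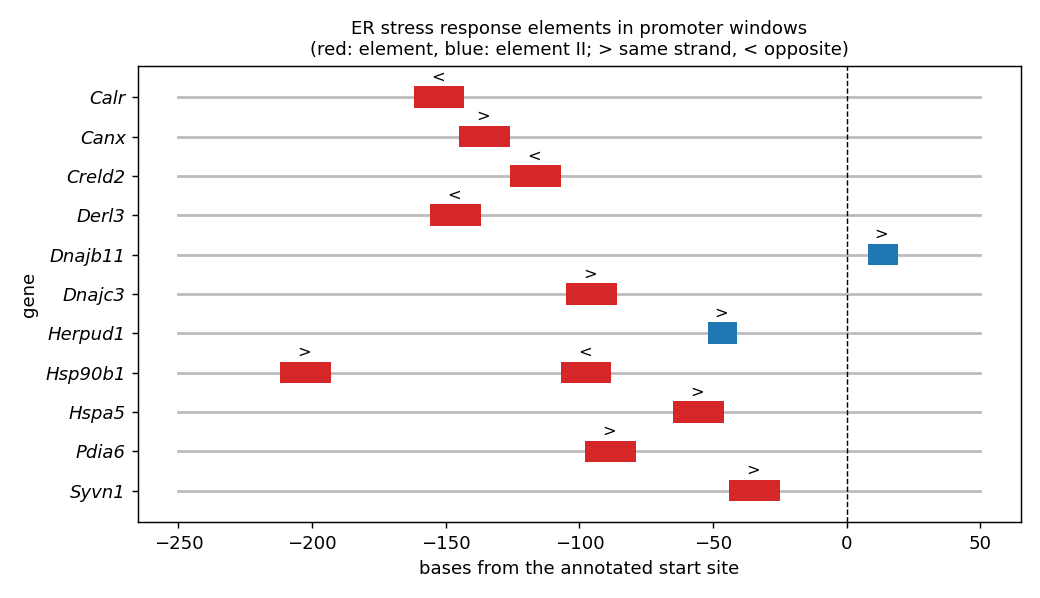
Positions of the ER stress response element (red) and its shorter form (blue) in the promoter windows of 11 genes, in bases from the annotated start site (dashed line); arrows give the strand of the match relative to the gene. The matches of 10 genes lie before the start site, that of Dnajb11 lies just after it, and Hsp90b1 holds 2.

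Against CD4+ cells of injected mice, members rose in each sorted subset at a share above that of all tested genes. In CD49b+ cells 26 of 40 rose (65%; 29.9% of all tested genes rose) and 3 fell (7.5%; 23.5% of all tested genes fell), at an adjusted p under 0.05 in limma. The median difference of the members was 0.47 on the log2 scale, against 0.03 over all tested genes. In CD25+ cells 20 of 40 rose (50%; background 20.8%) and 1 fell (2.5%; background 17.8%), with a median difference of 0.31 against 0.02. Between the subsets, 12 were higher in CD49b+ than in CD25+ cells (30%; background 17.5%) and 1 was lower (2.5%; background 12.4%), with a median of 0.13 against 0.03. The first 2 comparisons share the CD4+ arrays, so that their values are given side by side and not as support for each other. Most members are bright, and a 70th percentile filter kept 38 of them. Of all genes that passed it, 37.1% rose and 16.3% fell in CD49b+ cells (median 0.15), beside 26 and 2 members. In CD25+ cells 23.9% rose and 9.28% fell (median 0.10), beside 20 and 0 members. Between the subsets 22.8% were higher and 14.8% lower (median 0.05), beside 12 and 1 members. Of the 29, 21 and 13 members called in the 3 comparisons, 22, 13 and 8 passed whichever of the 10 arrays was left out. Without replicate 1 of the CD4+ cells of injected mice, 12 rather than 20 members rose in CD25+ cells (background then 13.9%). After quantile normalization of the arrays the split in CD49b+ cells was 23 higher (background 28.9%) and 6 lower (background 20.5%). Calr, Sel1l, Ssr3 and Ssr4 lost their call there, Derl3 gained one, and Atf4, Eif2ak3 and Herpud1 were called lower. In CD25+ cells Calr, Sec61a1, Ssr2 and Ssr3 lost theirs. Without replicate 3 of both subsets, Calr, Sel1l and Ssr4 lost their call in CD49b+ cells (adjusted p = 0.111, 0.0709 and 0.0730), and Calr, Ssr2 and Ssr3 theirs in CD25+ cells (adjusted p = 0.0802, 0.0794 and 0.0911). With every probe set counted, the split in CD49b+ cells was 27 higher and 8 lower. A gene counted there if any of its probe sets passed, while 27.5% of single probe sets were higher and 23.3% lower. Of the 16, 13 and 6 called members with other probe sets in the 3 comparisons, 6, 8 and 3 had no other called the same way. In a bulk sample, fewer cells that hold a transcript and less of it per cell cannot be told apart.

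**Figure D2:**
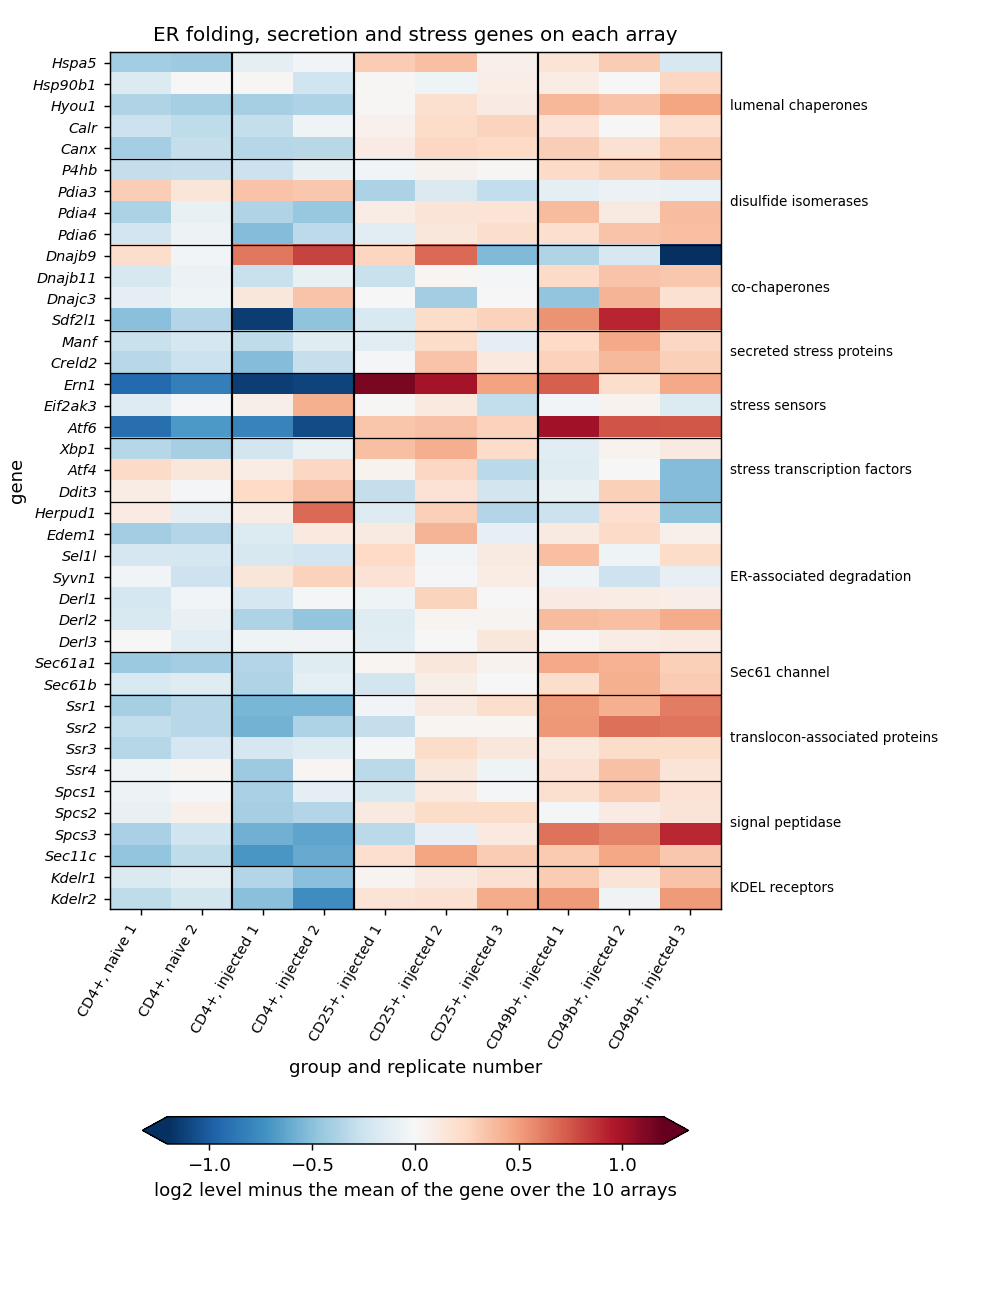
Level of 40 genes on each of the 10 arrays, as the log2 level minus the mean of that gene over the arrays (red higher, blue lower; colours end at -1.2 and 1.2), in columns by group and replicate and in rows by role. The 4 CD4+ columns are blue and the 6 subset columns red for most genes of translocation, signal peptidase and retrieval, while Dnajb9, Atf4, Ddit3 and Herpud1 are blue on replicate 3 of the CD49b+ arrays.

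Other features of the arrays moved with these groups. The proliferation genes rose with the members: of 15 measured, 14 rose in CD49b+ and 15 in CD25+ cells, and their summed linear level was 9328 to 13037 on CD49b+, 6831 to 9318 on CD25+ and 3658 to 4286 on CD4+ arrays of injected mice. Mki67, a marker of cycling cells, lay 4.19 ± 0.26 (SE) higher in CD49b+ and 3.19 ± 0.26 higher in CD25+ cells. Between the subsets, 7 of the 15 were higher in CD49b+ cells. Of 6 plasma cell markers measured, Ighm and Tnfrsf17 lay under the median of all 10 arrays and Pou2af1 fell in both subsets. Prdm1 rose by 1.82 and 1.85 and Tnfrsf13b by 0.58 and 0.60. Jchain differed by -1.54 ± 0.60 and -0.03 ± 0.60 and was not called. The summed level of the 6 was 551 to 676 on CD49b+, 660.1 to 1206 on CD25+ and 566.5 to 864.5 on CD4+ arrays of injected mice, which overlap. B cell markers summed to 393 to 512 on CD49b+ and 1718 to 2766 on CD25+ arrays, and natural killer cell markers to 717 to 1036 and 238 to 355. The B cell sum is carried by H2-Aa, at 6.79 to 7.66 on CD49b+ and 10.25 to 11.02 on CD25+ arrays. The natural killer cell sum is carried by Nkg7 and Gzma, with means of 8.25 and 8.22 on CD49b+ and 6.03 and 5.72 on CD25+ arrays. Klrd1 was also higher, at 6.82 against 5.36, while Ncr1, at 5.12 against 5.20, and Eomes, at 5.55 against 5.75, were not. Klrb1c and Klra8 were too dim to be tested. The part of proliferating or other cells in the members' result was not tested.

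Among the stress sensors, 2 of 3 rose in each subset (background 29.9% in CD49b+ and 20.8% in CD25+ cells). These were the 2 largest rises among the members in both comparisons. Ern1 encodes IRE1, the kinase and nuclease that splices Xbp1. Its level was 6.32 and 6.34 on CD4+ arrays of injected mice, 8.16, 7.66 and 7.90 on CD49b+ arrays and 8.58, 8.45 and 7.93 on CD25+ arrays, with 6.52 and 6.63 in naive mice. All subset arrays lay above all CD4+ arrays, and the 2 subsets overlapped. The difference from CD4+ cells was 1.58 ± 0.19 (SE; 2.99-fold, adjusted p = 0.000117) in CD49b+ and 1.99 ± 0.19 (3.97-fold, adjusted p = 4.76e-05) in CD25+ cells. Between CD49b+ and CD25+ cells it was -0.41 ± 0.17 (adjusted p = 0.0999); without replicate 3 of both subsets it was -0.60 and passed (adjusted p = 0.0297), as it did without replicate 3 of CD25+ cells alone. Ern1 has 5 probe sets, of different strength, and they disagreed. The second brightest, with a mean of 5.94 against 7.45, was called lower in both subsets, by 0.56 (limma over all probe sets, adjusted p = 0.00702 in CD49b+ and adjusted p = 0.0103 in CD25+ cells). Another differed by 0.59 in CD49b+ (adjusted p = 0.0698) and by 0.87 in CD25+ cells (adjusted p = 0.0225), and the other 2 were too dim to be tested.

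Atf6 encodes the sensor that is cut in the Golgi to release a transcription factor. Its level was 5.41 and 5.14 on CD4+ arrays of injected mice, 6.54, 6.56 and 6.49 on CD25+ arrays and 7.22, 6.96 and 6.95 on CD49b+ arrays, with 5.30 and 5.52 in naive mice. The 3 levels of CD4+, CD25+ and CD49b+ cells were in order with no overlap. Atf6 was 1.77 ± 0.12 higher in CD49b+ (3.41-fold, adjusted p = 2.86e-06) and 1.25 ± 0.12 higher in CD25+ cells (2.39-fold, adjusted p = 4.26e-05), and it was 0.51 ± 0.10 higher in CD49b+ than in CD25+ cells (adjusted p = 0.00491). Its second probe set moved the same way in the 3 comparisons, by 0.83, 0.28 and 0.54, and was called in each. Eif2ak3, which encodes PERK, was not called in either subset. Its level was 8.17 and 8.53 on CD4+ arrays of injected mice, 8.08, 8.15 and 7.94 in CD49b+ cells and 8.12, 8.22 and 7.81 in CD25+ cells. It lay -0.30 ± 0.14 from CD4+ cells in CD49b+ (adjusted p = 0.108) and -0.30 ± 0.14 in CD25+ cells (adjusted p = 0.123). Without replicate 1 of the CD4+ cells the former was -0.48 and was called lower (adjusted p = 0.0471).

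**Figure D3:**
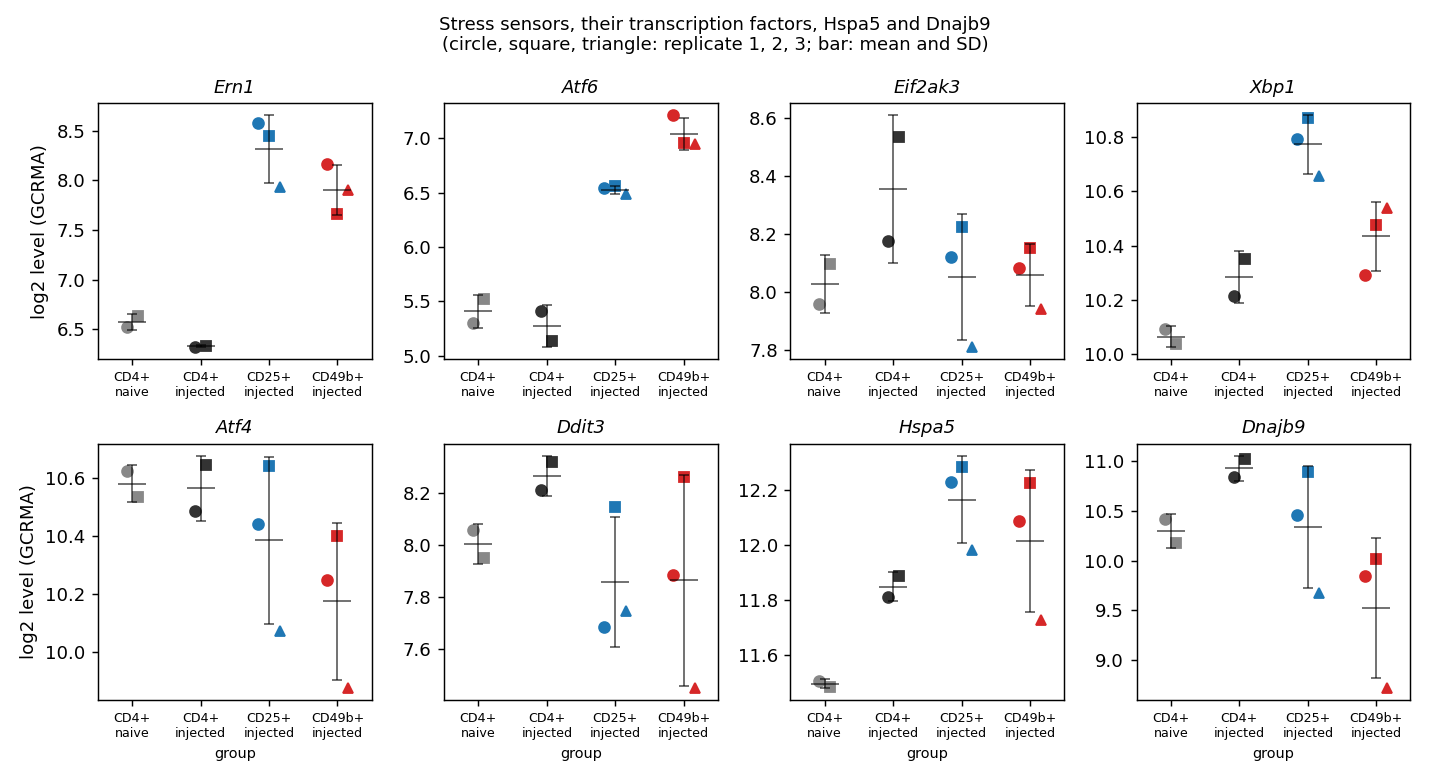
Log2 GCRMA level of 3 stress sensors, 3 transcription factors, Hspa5 and Dnajb9 on each array by group, with circles, squares and triangles for replicates 1, 2 and 3 and bars for the mean and SD (n = 2 or 3 arrays). Ern1 and Atf6 are above all CD4+ arrays on all 6 subset arrays, and the triangles are the lowest points of both subsets for Atf4, Hspa5 and Dnajb9.

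The transcription factors below the sensors did not rise with them as a group. Of the 3, 0 were called in CD49b+ cells in limma, and 0 had an unadjusted p under 0.05, while 1 rose in CD25+ cells. With arrays centred on their medians 1 of the 3, Xbp1, was called higher in CD49b+ cells (0.34, adjusted p = 0.0143). Xbp1, the target of IRE1, was at 10.22 and 10.35 on CD4+ arrays of injected mice, 10.29, 10.48 and 10.54 in CD49b+ cells and 10.79, 10.87 and 10.65 in CD25+ cells. The CD25+ arrays were the highest, with no overlap, while CD49b+ and CD4+ arrays overlapped. The CD25+ cells lay 0.49 ± 0.10 above CD4+ cells (1.40-fold, adjusted p = 0.00404) and 0.34 ± 0.09 higher in CD25+ than in CD49b+ cells (adjusted p = 0.0183), the 1 member called lower in CD49b+ cells. No other of its 4 probe sets was called the same way, and with the mean of its probe sets the 2 differences were 0.25 (adjusted p = 0.0734) and 0.20 (adjusted p = 0.104). The second call also ended without replicate 1 of CD49b+ or replicate 1 or 2 of CD25+ cells (adjusted p = 0.0620, 0.0545 and 0.0577).

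Atf4, the factor whose translation PERK raises, was at 10.48 and 10.64 on CD4+ arrays of injected mice, 10.25, 10.40 and 9.87 in CD49b+ cells and 10.44, 10.64 and 10.07 in CD25+ cells. Replicate 3 was the lowest of each subset. The differences from CD4+ cells were -0.39 ± 0.18 (adjusted p = 0.0944) and -0.18 ± 0.18 (adjusted p = 0.462). Ddit3, the pro-apoptotic factor CHOP, was at 8.21 and 8.32 on CD4+ arrays of injected mice, 7.88, 8.26 and 7.45 in CD49b+ cells and 7.68, 8.15 and 7.75 in CD25+ cells. Its differences of -0.40 ± 0.21 (adjusted p = 0.135) and -0.41 ± 0.21 (adjusted p = 0.156) did not pass, and without replicate 2 of CD49b+ cells the first was -0.60 and did (adjusted p = 0.0233).

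Of the 5 lumenal chaperones, 3 rose in each subset (background 29.9% in CD49b+ and 20.8% in CD25+ cells). Hyou1 (GRP170), which acts as a nucleotide exchange factor for BiP, was at 7.86 and 7.88 on CD4+ arrays of injected mice, 8.27, 8.44 and 8.35 in CD25+ and 8.66, 8.60 and 8.72 in CD49b+ cells. The 3 groups stood in that order without overlap, and the naive arrays, at 7.89 and 7.85, were at the level of the injected CD4+ cells. Hyou1 was 0.79 ± 0.08 higher in CD49b+ (adjusted p = 4.14e-05), 0.48 ± 0.08 higher in CD25+ (adjusted p = 0.00127), and 0.30 ± 0.07 higher in CD49b+ than in CD25+ cells (adjusted p = 0.0105); the last call ended without replicate 3 of both subsets (adjusted p = 0.0758). No other of its 3 probe sets was called the same way, and with their mean the 0.07 by which CD25+ cells exceeded CD4+ cells and the 0.14 between subsets did not pass (adjusted p = 0.489 and 0.161). Canx, the membrane-bound lectin chaperone calnexin, rose by 0.60 ± 0.08 and 0.53 ± 0.08. Its soluble relative Calr rose by 0.29 ± 0.11 (adjusted p = 0.0398) and 0.35 ± 0.11 (adjusted p = 0.0256), and lost both calls without replicate 1 of the CD4+ cells (adjusted p = 0.291 and 0.206). Leaving out any of 4 other arrays ended the call in CD49b+ cells, and replicate 2 or 3 of CD25+ cells the call there. Hsp90b1 did not pass in either subset, with differences of 0.23 and 0.13; with arrays centred on their medians the former was 0.42 and passed (adjusted p = 0.00855).

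Hspa5 itself was not called in the 4 comparisons. It lay at 11.51 and 11.49 in naive mice, 11.81 and 11.89 on CD4+ arrays of injected mice, 12.09, 12.22 and 11.73 in CD49b+ cells and 12.23, 12.28 and 11.98 in CD25+ cells. The CD25+ arrays were above the CD4+ arrays, while replicate 3 of CD49b+ cells lay below them. The differences from CD4+ cells were 0.16 ± 0.14 (adjusted p = 0.355) and 0.32 ± 0.14 (adjusted p = 0.108). Without replicate 3 of both subsets they were 0.31 (adjusted p = 0.0248) and 0.41 (adjusted p = 0.0112), and both passed. The difference in CD25+ cells also passed without replicate 3 of CD49b+ cells (adjusted p = 0.0432). With arrays centred on their medians the difference in CD25+ cells was 0.47 and passed as well (adjusted p = 0.0223).

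The disulfide isomerases P4hb, Pdia4 and Pdia6 rose in CD49b+ cells, by 0.46 ± 0.08, 0.69 ± 0.11 and 0.72 ± 0.12. Pdia4 and Pdia6 also rose in CD25+ cells, by 0.54 ± 0.11 and 0.49 ± 0.12, while P4hb, at 0.18 ± 0.08, did not pass (adjusted p = 0.106). P4hb was the 1 isomerase called between the subsets, 0.28 ± 0.07 higher in CD49b+ cells (adjusted p = 0.0164), a call that ended without replicate 3 of CD49b+ or replicate 1 of CD25+ cells (adjusted p = 0.0614 and 0.0519). The second, dimmer probe set of Pdia6 was called lower in both subsets, by 0.42 and 0.45, and with the mean of both sets the differences of 0.15 and 0.02 did not pass. The call of Pdia6 in CD25+ cells also ended without replicate 1 of the CD4+ cells (adjusted p = 0.0850). Pdia3, the isomerase that works with calnexin and calreticulin, fell in both. It lay at 5.67 and 5.66 on CD4+ arrays of injected mice, 5.23, 5.27 and 5.26 in CD49b+ cells and 4.95, 5.17 and 5.04 in CD25+ cells, a fall of 0.41 ± 0.09 (adjusted p = 0.00292) and of 0.61 ± 0.09 (adjusted p = 0.000487). It was read from the 1 probe set named for it here, whose mean over the arrays was 5.34, not far above the array medians.

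Among the co-chaperones, which work with BiP, Sdf2l1 and Dnajb9 moved in opposite directions. Sdf2l1 was at 6.72 and 7.38 on CD4+ arrays of injected mice, 7.68, 8.08 and 8.13 in CD25+ and 8.40, 8.77 and 8.57 in CD49b+ cells. The groups did not overlap, although the CD4+ arrays lay far apart. It was 1.53 ± 0.20 higher in CD49b+ (2.89-fold, adjusted p = 0.000208) and 0.91 ± 0.20 higher in CD25+ cells (1.88-fold, adjusted p = 0.00607), the latter lost without replicate 1 of the CD4+ cells (0.58, adjusted p = 0.0608). It was 0.62 ± 0.18 higher in CD49b+ than in CD25+ cells (adjusted p = 0.0275), a call that ended without replicate 2 or 3 of CD49b+ or replicate 1 of CD25+ cells (adjusted p = 0.0919, 0.0653 and 0.104).

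Dnajb9 (ERdj4), which helps BiP to restrain IRE1, was lowest in CD49b+ cells. It lay at 10.84 and 11.02 on CD4+ arrays of injected mice, 10.46, 10.89 and 9.67 in CD25+ and 9.84, 10.01 and 8.72 in CD49b+ cells. The CD49b+ arrays were all below the CD4+ arrays, and replicate 3 was the lowest of both subsets by 1.21 and 1.00 against the mean of the other 2. Dnajb9 was 1.40 ± 0.40 lower in CD49b+ than in CD4+ cells (2.65-fold lower, adjusted p = 0.0145); without replicate 1 or 2 of the CD4+ cells the call ended (adjusted p = 0.0505 and 0.0742). In CD25+ cells the difference was -0.59 ± 0.40 (adjusted p = 0.272). Between the subsets it was -0.82 ± 0.36 (adjusted p = 0.116). With the replicate numbers as pairs, which were read from these same data and not from the labels, the same difference passed (adjusted p = 0.000797). It passed as well without replicate 3 of both subsets (-0.75, adjusted p = 0.0137) and without replicate 3 of CD25+ cells alone (-1.15, adjusted p = 0.0311).

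Dnajb11 (ERdj3) was at 9.18 and 9.36 on CD4+ arrays of injected mice, 9.19, 9.47 and 9.42 in CD25+ and 9.68, 9.79 and 9.77 in CD49b+ cells. It rose by 0.47 ± 0.10 in CD49b+ cells (adjusted p = 0.00409) and was 0.39 ± 0.09 higher there than in CD25+ cells (adjusted p = 0.0117; 0.0517 without replicate 3 of both subsets). Dnajc3 (p58IPK, an inhibitor of PERK) was not called, with a spread of 0.46 (SD, n = 3) in CD49b+ cells. Of its 5 probe sets, 2 others rose in CD49b+ cells (0.41, adjusted p = 0.0317, and 0.34, adjusted p = 0.0267). With the mean of all 5 it was 0.32 higher in CD49b+ than in CD25+ cells (adjusted p = 0.0219). The secreted stress proteins Manf and Creld2 both rose in CD49b+ cells, by 0.54 ± 0.12 and 0.71 ± 0.12. In CD25+ cells Creld2 rose by 0.54 ± 0.12 and Manf, at 0.22 ± 0.12, did not pass (adjusted p = 0.186; 0.0279 with arrays centred on their medians). Creld2 lost this call without replicate 1 of the CD4+ cells (adjusted p = 0.0558). Manf was 0.33 ± 0.11 higher in CD49b+ than in CD25+ cells (adjusted p = 0.0463), a call that ended when any of 9 of the 10 arrays was left out (adjusted p up to 0.149).

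ER-associated degradation draws misfolded proteins out of the ER for the proteasome. Of its 7 genes, 2 rose (28.6%; background 29.9%) and 1 fell (14.3%; background 23.5%) in CD49b+ cells, and 1 rose (14.3%; background 20.8%) in CD25+ cells. These shares were at or below those of all tested genes. Derl2, a membrane component of the export channel, was at 8.50 and 8.40 on CD4+ arrays of injected mice, 8.73, 8.91 and 8.91 in CD25+ and 9.25, 9.24 and 9.32 in CD49b+ cells. These groups were in order without overlap, while the naive arrays, at 8.69 and 8.79, overlapped the CD25+ arrays. The differences of Derl2 were 0.82 ± 0.09 (adjusted p = 4.71e-05) and 0.40 ± 0.09 (adjusted p = 0.00507) from CD4+ cells of injected mice and 0.42 ± 0.08 (adjusted p = 0.00252) between the subsets. With the mean of its 2 probe sets they were 0.22, 0.03 and 0.20, and none passed (adjusted p = 0.160, 0.885 and 0.221).

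The 2 core components of the HRD1 ligase went opposite ways in CD49b+ cells: Sel1l, its adaptor, rose by 0.39 ± 0.12 (adjusted p = 0.0222) and Syvn1, the ligase HRD1, fell by 0.34 ± 0.10 (adjusted p = 0.0191). Sel1l lost the call without either CD4+ array or replicate 1 or 3 of CD49b+ cells, and with the mean of its probe sets its difference was -0.00. Syvn1 lost it without replicate 2 of the CD4+ or of the CD49b+ cells (adjusted p = 0.125 and 0.0579), and also with each array centred on its median (-0.15, adjusted p = 0.246). On the naive arrays Syvn1 lay at 8.09 and 7.87, beside 8.07, 7.87 and 8.02 on the CD49b+ arrays. Of the 5 probe sets of Sel1l, 2 were called lower. Herpud1, a stress-induced part of the same complex, was at 8.38 and 8.97 on CD4+ arrays of injected mice, 8.03, 8.50 and 7.81 in CD49b+ cells and 8.13, 8.58 and 7.94 in CD25+ cells. Replicate 3 was the lowest of each subset, and the differences of -0.56 ± 0.25 (adjusted p = 0.0800) and -0.46 ± 0.25 (adjusted p = 0.170) did not pass. Without replicate 1 of the CD4+ cells or replicate 2 of CD49b+ cells, the first was -0.86 and -0.75 and did (adjusted p = 0.0410 and 0.0276), as did -0.65 with the mean of its probe sets (adjusted p = 0.0411). Edem1, Derl1 and Derl3 were called in neither subset. With arrays centred on their medians Derl1 was called higher in both (0.39, adjusted p = 0.0124, and 0.34, adjusted p = 0.0295) and Derl3 in CD49b+ cells (0.32, adjusted p = 0.0127). With the mean of its probe sets Edem1 was called higher in CD25+ cells (0.31, adjusted p = 0.0196).

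All 10 measured genes of the Sec61 channel, the translocon-associated complex and signal peptidase rose in CD49b+ cells, by 0.36 to 1.32 (background 29.9%). In CD25+ cells 7 of these 10 genes of entry into the ER did (background 20.8%). Ssr1, the alpha subunit of the translocon-associated complex, was at 8.94 and 8.95 on CD4+ arrays of injected mice, 9.46, 9.60 and 9.70 in CD25+ and 10.00, 9.92 and 10.11 in CD49b+ cells. It rose by 1.06 ± 0.09 in CD49b+ (2.09-fold, adjusted p = 1.66e-05) and by 0.64 ± 0.09 in CD25+ cells (1.56-fold, adjusted p = 0.000573), and it was 0.42 ± 0.08 higher in CD49b+ than in CD25+ cells (adjusted p = 0.00409). The groups did not overlap. No other of its 4 probe sets was called the same way in CD25+ cells.

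Ssr2, the beta subunit, was at 7.05 and 7.24 on CD4+ arrays of injected mice, 7.33, 7.64 and 7.64 in CD25+ and 8.13, 8.28 and 8.26 in CD49b+ cells. The rise in CD49b+ cells, 1.08 ± 0.11 (adjusted p = 4.86e-05), stood beside 0.39 ± 0.11 in CD25+ cells (adjusted p = 0.0217), and CD49b+ cells were 0.69 ± 0.10 above CD25+ cells (adjusted p = 0.000718). The call in CD25+ cells ended without replicate 1 of the CD4+ cells (adjusted p = 0.161) or replicate 2 or 3 of CD25+ cells. Ssr3 rose by 0.36 ± 0.09 and 0.29 ± 0.09, and lost both calls without replicate 1 of the CD4+ cells (adjusted p = 0.0559 and 0.153). Ssr4 rose in CD49b+ cells by 0.44 ± 0.16 (adjusted p = 0.0404) and was not called in CD25+ cells (0.13 ± 0.16). It lost the call without that array (0.21, adjusted p = 0.352) or any of 6 others. The mean of its 3 probe sets turned the direction (-0.17, adjusted p = 0.141, and -0.27, adjusted p = 0.0429, in CD25+ cells), and 1 of the 3 was called lower by 0.82 in CD49b+ cells. With the replicate numbers as pairs, read from these same data, it was higher in CD49b+ than in CD25+ cells (0.31, adjusted p = 0.0306, and 0.130 without pairs).

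Sec61a1, the channel's pore-forming subunit, was at 9.63 and 9.84 on CD4+ arrays of injected mice, 10.00, 10.12 and 10.03 in CD25+ and 10.44, 10.40 and 10.27 in CD49b+ cells, in that order without overlap. It rose by 0.64 ± 0.09 (adjusted p = 0.000315) and 0.31 ± 0.09 (adjusted p = 0.0206), and was 0.32 ± 0.08 higher in CD49b+ than in CD25+ cells (adjusted p = 0.0138). The call in CD25+ cells ended without replicate 1 of the CD4+ cells (adjusted p = 0.180) or replicate 2 of CD25+ cells (adjusted p = 0.0554), and with the mean of its probe sets (0.26, adjusted p = 0.0660). Sec61b, a small subunit of the channel, was at 10.27 and 10.53 on CD4+ arrays of injected mice, 10.41, 10.70 and 10.63 in CD25+ and 10.84, 11.06 and 10.93 in CD49b+ cells. The CD49b+ arrays were the highest, and the other 2 groups overlapped. It rose in CD49b+ cells by 0.55 ± 0.12 and was 0.37 ± 0.10 above CD25+ cells (adjusted p = 0.0237), the latter lost without replicate 2 or 3 of CD49b+ or replicate 1 of CD25+ cells (adjusted p = 0.0810, 0.0571 and 0.0822).

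All 4 signal peptidase genes rose in CD49b+ cells (background 29.9%). Spcs3, a subunit that the complex needs for its activity, was at 9.09 and 9.03 on CD4+ arrays of injected mice, 9.34, 9.56 and 9.78 in CD25+ and 10.31, 10.26 and 10.57 in CD49b+ cells. It rose by 1.32 ± 0.14 in CD49b+ (2.50-fold, adjusted p = 4.41e-05) and by 0.51 ± 0.14 in CD25+ cells (adjusted p = 0.0157), the latter lost without replicate 1 or 2 of the CD4+ cells (adjusted p = 0.0599 and 0.0834). On the naive arrays Spcs3 lay at 9.27 and 9.43, which overlapped the CD25+ arrays. Its gap between the subsets, 0.82 ± 0.12 (1.76-fold, adjusted p = 0.000810), was the largest of the members called in that comparison. Sec11c, a catalytic subunit, was at 10.41 and 10.50 on CD4+ arrays of injected mice, 11.42, 11.57 and 11.43 in CD49b+ cells and 11.32, 11.59 and 11.41 in CD25+ cells. It rose by 1.02 ± 0.10 and 0.98 ± 0.10, and the difference between the subsets was 0.04 ± 0.09 (adjusted p = 0.810).

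Spcs2, an accessory subunit, was at 9.70 and 9.75 on CD4+ arrays of injected mice, 10.08, 10.19 and 10.25 in CD49b+ cells and 10.21, 10.32 and 10.32 in CD25+ cells. All 6 subset arrays were above these CD4+ arrays, while the naive arrays, at 10.01 and 10.16, reached the subsets' range. It rose by 0.45 ± 0.09 in CD49b+ and 0.56 ± 0.09 in CD25+ cells, and its other probe set was not called the same way in CD49b+ cells. Spcs1 rose in CD49b+ cells by 0.48 ± 0.11, which was lost without replicate 1 of the CD4+ cells (adjusted p = 0.0648) and with the mean of its probe sets (0.06, adjusted p = 0.550), and in CD25+ cells its 0.22 ± 0.11 did not pass (adjusted p = 0.146). The KDEL receptors return escaped chaperones from the Golgi to the ER, and both rose in both subsets. Kdelr1 rose by 0.69 ± 0.09 and 0.54 ± 0.09. Kdelr2 was at 7.57 and 7.33 on CD4+ arrays of injected mice, 8.58, 8.03 and 8.58 in CD49b+ cells and 8.24, 8.26 and 8.52 in CD25+ cells, and rose by 0.95 ± 0.17 (adjusted p = 0.00126) and 0.89 ± 0.17 (adjusted p = 0.00278). The subsets overlapped, and neither receptor was called between them. The other probe set of Kdelr2 was not called the same way in CD25+ cells.

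**Figure D4:**
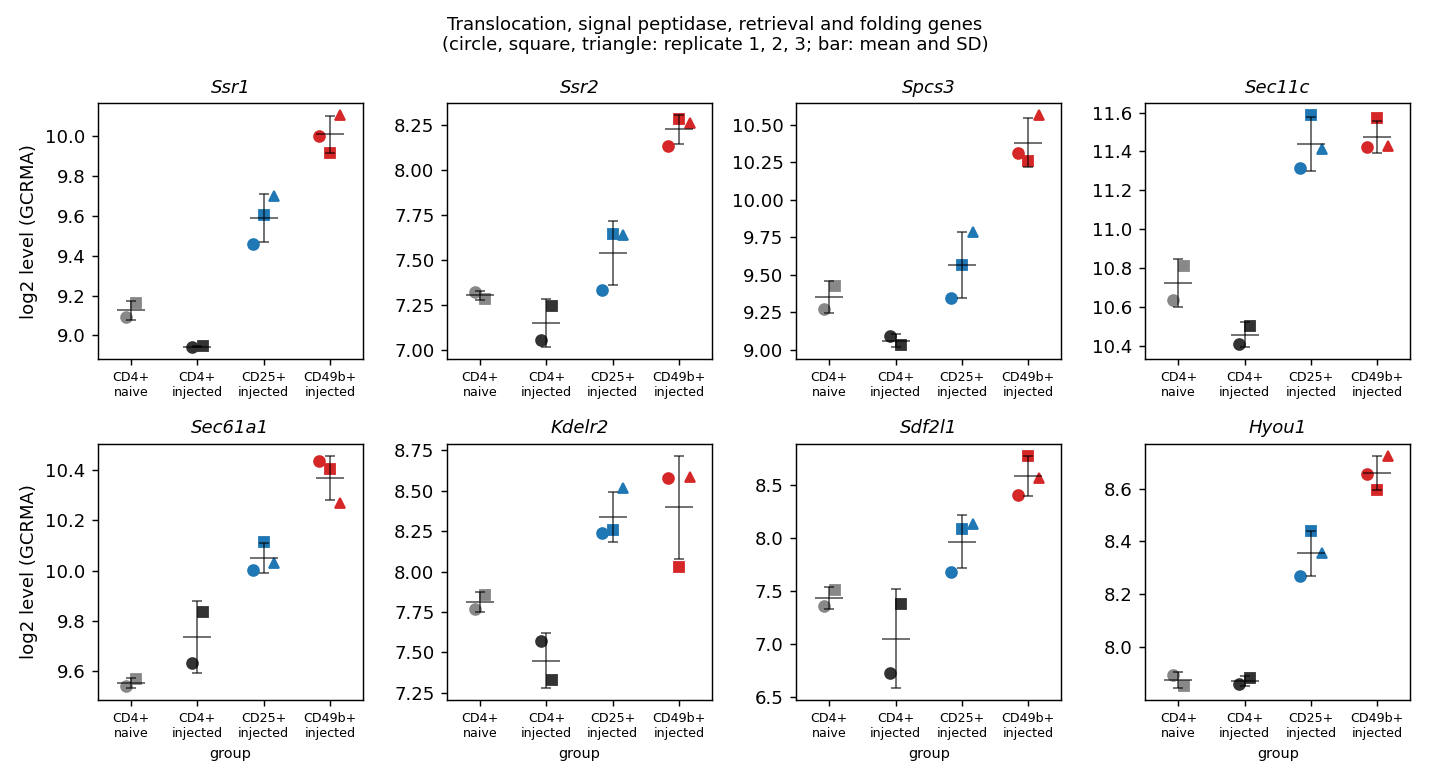
Log2 GCRMA level of 8 genes of translocation, signal peptidase, retrieval and folding on each array by group, with symbols for replicate numbers and bars for the mean and SD (n = 2 or 3 arrays). Ssr1, Spcs3, Sec61a1, Sdf2l1 and Hyou1 are highest in CD49b+ cells, while Sec11c lies between 11.32 and 11.59 on all 6 subset arrays.

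Between the subsets, the 12 members higher in CD49b+ cells were Spcs3, Ssr2, Sdf2l1, Atf6, Ssr1, Derl2, Dnajb11, Sec61b, Manf, Sec61a1, Hyou1 and P4hb. The median standard error of the members in this comparison was 0.10. With replicate numbers as pairs, read from these same data, 15 were higher (background 21.3%) and 2 lower (background 15.2%). The call was then gained by Pdia6, Spcs1 and Ssr4 (adjusted p = 0.0297, 0.0297 and 0.0306) and by Dnajb9 in the lower direction. Without replicate 3 of both subsets, 6 of 40 were higher (background 12.6%) and 3 lower (background 10.3%), shares near those of all tested genes. Spcs3, Ssr2, Atf6, Ssr1, Derl2, Dnajb11, Sec61a1 and Hyou1 passed whichever 1 array was left out.

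**Figure D5:**
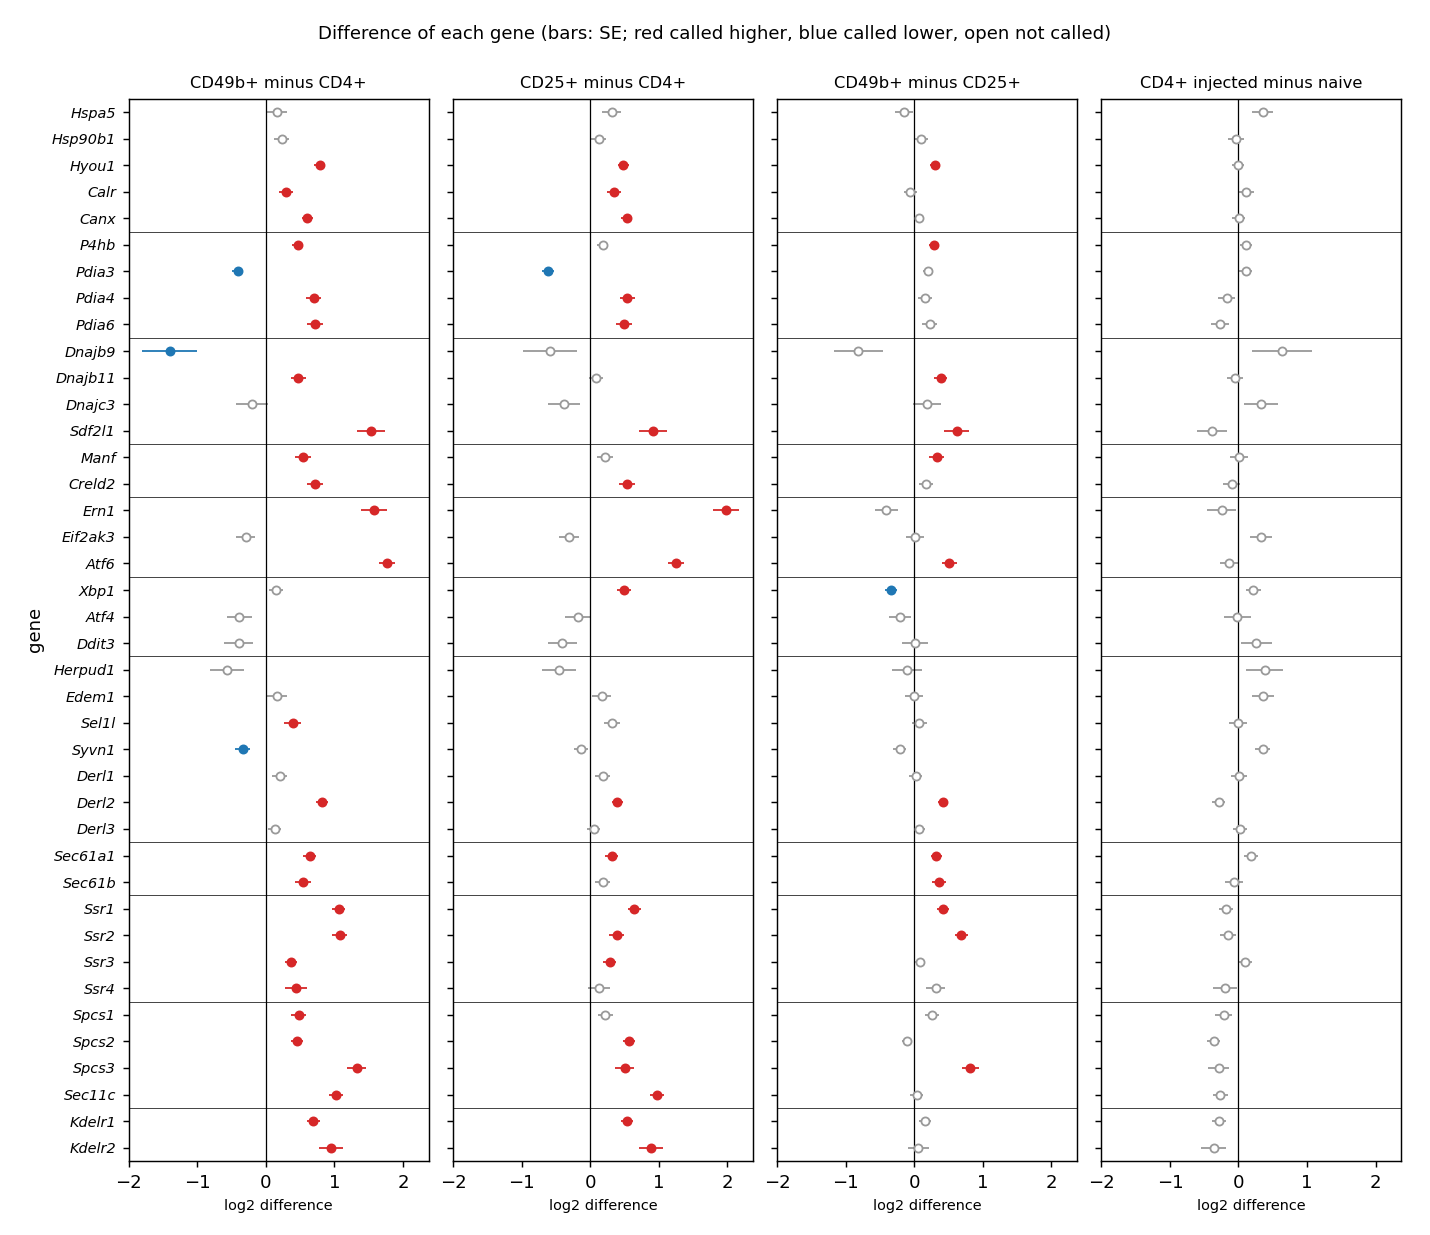
Log2 difference of 40 genes in the 4 comparisons, with bars for the SE of the fit; red points were called higher, blue points lower and open points were not called. The points of translocation, signal peptidase and KDEL receptor genes are all to the right of 0 in the first 2 panels, and no point is filled in the comparison of injected with naive mice.

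No member was called after injection. In CD4+ cells of injected against naive mice 0 of 40 rose (background 0.0272%) and 0 fell (background 1.36%) in limma, with a median difference of -0.01. At an unadjusted p under 0.05 there were 7, of which Hspa5, Edem1 and Syvn1 were higher and Derl2, Spcs2, Sec11c and Kdelr1 lower. The share of all tested genes at this unadjusted threshold was not counted, so the 7 cannot be read as an excess. With array weights in limma 0 members were called as well. Hspa5 differed by 0.35 ± 0.16 (adjusted p = 0.400), with 11.51 and 11.49 against 11.81 and 11.89. Spcs2 differed by -0.36 ± 0.09 (adjusted p = 0.118), with 10.01 and 10.16 against 9.70 and 9.75. The 4 signal peptidase genes all lay lower after injection, by 0.21 to 0.36 in size, and none passed. The summed linear level of B cell markers also lay lower there, at 1014 to 1246 against 2936 to 3293 in naive mice. That of myeloid and dendritic cell markers was 500.3 to 584.8 against 946 to 1212. The B cell sum is carried by H2-Aa, with means of 9.32 against 11.03. Of 9 B cell markers 4 lay higher after injection, the dim Cd79a, Ms4a1, Blnk and Pax5, by up to 0.13. Of 10 myeloid and dendritic cell markers 3 did, the dim Itgam, Cd14 and Xcr1, by up to 0.14. Of the 6 tested of each list, 4 were called lower, and the part of such cells in the members' values was not tested. With 2 arrays a group, the median standard error of a member was 0.12.

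On replicate 3 of both subsets, 7 of 40 members (17.5%) were lower than on both other arrays of the subset, a share at the background of 17.0% of all genes. The 7 were Dnajb9, Hspa5, Atf4, Herpud1, Eif2ak3, Edem1 and Atf6. Hspa5 lay 0.43 and 0.27 under the mean of the other 2 arrays, Atf4 0.45 and 0.47, and Herpud1 0.46 and 0.42. A list of immediate early genes, chosen after values were seen, moved the same way: all 9 measured, Fos, Fosb, Jun, Junb, Egr1, Egr2, Ier2, Dusp1 and Nr4a1, were lowest on replicate 3 of both subsets, with median gaps of -1.30 and -0.85. Atf3, a stress-induced factor, was at 8.65, 10.08 and 5.995 in CD49b+ and 8.47, 9.73 and 6.11 in CD25+ cells. Other members were higher on these arrays: Spcs3 lay 0.28 and 0.33 above the other 2 and Kdelr2 0.28 and 0.27 above. What sets these arrays apart was not tested.

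The calls were also counted by promoter, beside a background of 29.9% rising and 23.5% falling in CD49b+ cells and 20.8% rising in CD25+ cells. Among genes that passed the 70th percentile filter, 37.1% rose in CD49b+ and 23.9% in CD25+ cells. Of the 9 members with the ER stress response element, 4 rose and 1 fell in CD49b+ cells with a median difference of 0.23, beside 14 that rose and 2 that fell of 22 tested members whose window lacks it, with a median of 0.45. Of the 9 tested members with no window here, 8 rose, with a median of 0.95. In CD25+ cells 4 of the 9 with the element rose (median 0.32), beside 9 of the 22 (median 0.20) and 7 of the 9 with no window (median 0.48). Between the subsets the 3 medians were 0.07, 0.11 and 0.32. Calr, Canx, Creld2 and Pdia6 were the 4 with the element that rose in each comparison with CD4+ cells, and Syvn1 fell in CD49b+ cells. These counts are a description, and no difference between the sets was tested.

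Other genes of the pathway, 99 in 6 lists of which 88 were tested, were counted the same way. In CD49b+ cells 39 rose (44.3%; background 29.9%) and 9 fell (10.2%; background 23.5%). In CD25+ cells 22 rose (25%; background 20.8%) and 7 fell (7.95%; background 17.8%). Between the subsets 26 were higher in CD49b+ cells (29.5%; background 17.5%) and 6 lower (6.82%; background 12.4%). The medians were 0.21, 0.10 and 0.12, against 0.03, 0.02 and 0.03 over all tested genes. Folding and oxidation genes counted 11 that rose (61.1%) and 1 that fell of 18 in CD49b+ cells. Ero1a, the oxidase that recharges the isomerases, rose there by 2.01 ± 0.18 (4.02-fold) and in CD25+ cells by 0.88 ± 0.18. Of 10 other translocation genes 3 rose (30%, at the background), among them Sec62, a Sec61 partner in the import of small proteins, by 2.03 ± 0.22 and in CD25+ cells by 1.44 ± 0.22. Of 11 oligosaccharyltransferase genes, which attach N-glycans to entering proteins, 6 rose (54.5%) and 1 fell, and Rpn1 rose by 1.16 ± 0.12 and 0.76 ± 0.12.

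Of 16 ER export genes 10 rose (62.5%) and 2 fell in CD49b+, and 8 rose (50%) in CD25+ cells. Of 16 other degradation genes 4 rose (25%) and 1 fell in CD49b+, and 1 rose (6.25%) in CD25+ cells. Of 17 other stress response genes 5 rose (29.4%) and 4 fell (23.5%) in CD49b+, and 3 rose (17.6%) and 4 fell (23.5%) in CD25+ cells. The shares that rose in these last 2 lists were at or below the background. Asns, an ATF4 target, rose by 0.64 ± 0.13 and 0.80 ± 0.13, whereas Trib3 and Chac1, also targets of this branch, fell by 0.53 and 0.34 in CD49b+ and by 0.61 and 0.22 in CD25+ cells. These 3 were picked from the list after their values were seen. Chac1 was dim, at 4.93 and 4.95 on CD4+ arrays of injected mice, 4.55 to 4.63 on CD49b+ and 4.67 to 4.80 on CD25+ arrays. These levels lie near the array medians, which were themselves lower on the subset arrays, so its fall is weak evidence of a change. In CD4+ cells of injected against naive mice 1 of the 88 was called: Lman1, a cargo receptor for ER export, at 6.77 and 6.73 against 7.35 and 7.60, lower by 0.73 ± 0.12 (adjusted p = 0.0184).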

How the data were processed

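RNA of the sorted cells came from a column kit for small samples, and 100 ng of it was amplified and labelled from the 3' end, per the labels' protocols. The authors deposited log2 values for 45141 probe sets on each of the 10 arrays. The submitters' processing notes name GCRMA, which corrects background, normalizes and summarises probes, and Expression Console 1.2.1. They give no settings, and joint normalization of the arrays is not stated in the labels. The number of arrays limits the precision.

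Without 104 control probe sets, 28898 had 1 gene symbol in the platform annotation, and 28689 were matched to the current gene table. Each of 17097 genes took its brightest probe set, and 11037 with at least 2 arrays above the 50th percentile of their array were tested. Differences, standard errors and two-sided p-values came from limma 3.58.1 in R 4.3.3, fitted once to the means of all 4 groups (6 residual degrees of freedom), with p-values adjusted over all tested genes (Benjamini-Hochberg; called under 0.05). The fit was tested on simulated data.

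The members and all lists were chosen with earlier results of these data known. Values on every array were given for up to 8 called members with the largest difference in each comparison, and for Hspa5, Xbp1, Atf4, Ddit3, Ern1, Eif2ak3 and Atf6; those of other members were added after their values were seen. Of each other pathway list, up to 2 called genes with the largest difference per comparison could be named. All promoter matches are shown, not 6 as the rule had it, and protein ends were not analysed here.

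Deviations of same-numbered CD49b+ and CD25+ arrays from their group means correlated at 0.16, 0.37 and 0.64 over the 11037 genes, so that numbers were read as pairs in that comparison, from the data and not from the labels. CD4+ arrays gave 2 pairs only (0.09 and 0.52 with CD49b+, 0.24 and 0.53 with CD25+, and -0.21 for naive with injected). Replicate 1 of the CD4+ cells of injected mice correlated at 0.45 with replicate 3 of CD49b+ cells, more than with replicate 1. Other filters, scalings, probe set rules, weights, priors and left-out arrays were tried as alternatives.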

Additional observations from a re-analysis of the deposited data

How the results depend on the processing

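Of 993 values of 47 named gene results under alternatives, 962 kept their side of the threshold, 18 lost and 13 gained a call. Many alternatives left the log2 difference as it was, such as other filters, other priors or arrays left out of other groups. The other probe sets of a gene entered these values only through the mean of all probe sets. The total thus does not measure how far probe sets of a gene differ. Among these 47 results, which leave out some members named here, the sign turned in 14 values of 4 results, of which 0 were called in either setting. Outside them, with the mean of all probe sets, Ssr4 in CD49b+ cells went from 0.44, which was called, to -0.17. Sel1l there went from 0.39, also called, to -0.0043. Ssr4 in CD25+ cells went from 0.13 to -0.27 and was called lower (limma, adjusted p = 0.0429). With each array left out in turn, members called higher and lower ranged from 21 to 26 and 1 to 4 in CD49b+ against CD4+ cells, 12 to 21 and 1 to 1 in CD25+ against CD4+ cells, 8 to 14 and 0 to 3 in CD49b+ against CD25+ cells, and 0 to 0 in injected against naive mice; the median differences ranged from 0.40 to 0.59, 0.26 to 0.35, 0.11 to 0.17 and -0.07 to 0.03. Members called lower in CD49b+ against CD4+ cells were 6 after quantile normalization and 8 with every probe set, where another probe set of a gene can pass. Those lower in CD25+ against CD4+ cells were 0 with a 70th percentile filter, which drops the dim Pdia3, 2 with the mean of all probe sets and 5 with every probe set. Those lower in CD49b+ against CD25+ cells were 0 with the mean, 2 with every probe set and 2 with the replicate block. In injected against naive mice the replicate block gave 1 lower (Spcs2) and the crossed replicate block, added after seeing the data, 1 higher (Dnajb9). Without replicate 3 of both subsets, also added later, 6 members were higher (background 12.6%) and 3 lower (background 10.3%) in CD49b+ against CD25+ cells.

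The median difference in CD49b+ against CD4+ cells was 0.33 after quantile normalization, 0.66 with arrays centred on their medians and 0.25 with the mean of all probe sets, and in CD25+ against CD4+ cells 0.47 with centred arrays. Centring moved the median of all tested genes from 0.03 to 0.22 and from 0.02 to 0.18 in these comparisons, and members called were then 30 higher and 2 lower, and 27 and 1. Of all tested genes, 44.4% were then higher and 12.3% lower in CD49b+ cells, and 35.9% and 9.75% in CD25+ cells. Quantile normalization gave 23 higher (background 28.9%) and 6 lower (background 20.5%) in CD49b+ cells. Of the members called there, 79.3% were higher, against 89.7% before. The replicate block called Hspa5 higher in both subsets (0.28, adjusted p = 0.0194, and 0.43, adjusted p = 0.00361). It called Manf and Sel1l higher in CD25+ cells (adjusted p = 0.0439 and 0.0450) and left Calr in CD49b+ cells uncalled (adjusted p = 0.0708). With it 26 members were higher and 3 lower in CD49b+ cells (background 32% and 24.1%), and 23 and 1 in CD25+ cells (background 24% and 18.8%).
In injected against naive mice all genes called were 3 higher and 150 lower, 57 and 320 with the replicate block, 26 and 302 with array weights, 97 and 429 with the crossed pairing, and 0 and 0 with the arrays compared alone. Causes of these shifts were not tested beyond the choices named.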

Other observations

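The 2 cargo adaptors Sec24a and Sec24d of the COPII coat, which buds vesicles from the ER, went opposite ways between the subsets. Sec24d was at 8.35, 8.29 and 8.37 in CD49b+ and 7.43, 7.62 and 7.46 in CD25+ cells, higher by 0.84 ± 0.09 in CD49b+ cells (adjusted p = 0.000120 in limma). Sec24a was at 8.50, 8.25 and 8.34 in CD49b+ and 9.52, 9.36 and 9.13 in CD25+ cells, lower by 0.97 ± 0.11 in CD49b+ cells (adjusted p = 0.000181). Neither pair of groups overlapped. Txndc5, an isomerase of the lumen, was at 8.70, 8.65 and 8.72 in CD49b+ cells and 7.38, 7.39 and 7.52 in CD25+ cells, beside 7.17 and 7.23 in CD4+ cells of injected mice. Creb3l2, an ER-bound transcription factor related to ATF6 in its processing, rose by 1.23 ± 0.11 in CD25+ and by 0.76 ± 0.11 in CD49b+ cells against CD4+ cells of injected mice.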
